A study of Mus musculus with 9 samples.

Results

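Polycomb group genes were followed through the first 2 days of spermatogonial differentiation in culture. The set held 10 genes, chosen by name as subunits of the Polycomb repressive complexes PRC1 and PRC2, Scm proteins and an H3K27 demethylase, out of 46078 gene IDs in the count files. They were Ezh1, Ezh2, Eed, Suz12, Jarid2, Rnf2, Cbx2, Scmh1, Scml2 and Kdm6b, and all 10 were found and passed the filter on low counts in every comparison. The RNA came from EGFP-SSCs, a single EGFP-marked mouse spermatogonial stem cell line of WT genotype, with 3 libraries at each of 0, 24 and 48 h. The 0 h cells were in normal culture on mitomycin C-treated mouse embryonic fibroblasts, in a medium holding GDNF, EGF, basic FGF, β-estradiol and progesterone. For the 24 h and 48 h groups, the same line was mixed 1:1 with testicular somatic cells of busulfan-treated mice aged 3 to 7 days. That co-culture held BMP-4/7, retinoic acid, activin A, testosterone, FSH and BPE, and flow cytometry was used to recover the cells with EGFP. The labels name this sort for the later times, while the paper describes sorting of cells from different stages of culture. The later groups therefore differed from 0 h in feeder cells and medium as well as in time, and these cannot be told apart. If the 0 h cells were not sorted, the sort is a further such difference. What drives the EGFP transgene is not given in the sources used here.

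PRC2 places methyl groups on lysine 27 of histone H3 (H3K27me3), a mark of silent developmental genes. Its catalytic subunit is either EZH2 or EZH1, held together with the core subunits EED and SUZ12, and JARID2 is an accessory subunit that helps recruit and stimulate the complex. PRC1 is built around the ubiquitin ligase RNF2 (RING1B) or its paralogue RING1, which mark histone H2A. In canonical PRC1 a CBX protein such as CBX2 binds H3K27me3, and SCMH1 and SCML2 are Scm (Sex comb on midleg) proteins associated with PRC1. KDM6B, KDM6A and, in part, the Y-linked UTY remove methyl groups from H3K27. SCML2 is known as a germline Polycomb protein of the testis.

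Levels are CPM, the reads of a gene scaled to a common library total, after TMM scaling, which corrects library totals for composition. FPKM here is that CPM per kilobase of all annotated exons of a gene, the scale used to set one gene beside another. A gene was called at an adjusted p up to 0.05, taken from the quasi-likelihood test of edgeR and adjusted by the Benjamini-Hochberg method over every gene tested. Fold changes are log2 values with their standard error (SE), and each comparison was fitted on its own 6 libraries. The 2 comparisons against 0 h share the 0 h libraries and are not independent of each other. The labels call the replicates biological, but all are of 1 line, so the p-values measure the spread between cultures of that line.

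The libraries held 16825251 to 22201892 counts. The 0 h libraries differed more from each other than those of the other groups did, with a chi-square per degree of freedom of 39.4 to 90.9 between pairs against 8.69 to 14.7 at 24 h and 7.78 to 28.7 at 48 h. At 0 h this spread ran along GC content. GC content here is that of the longest annotated transcript of a gene. Across 15647 genes, the deviation of a library from its group mean had a Spearman correlation with GC of -0.654 in replicate 1, 0.011 in replicate 2 and 0.65 in replicate 3. In the other 2 groups it lay between -0.422 and 0.44. The summed CPM of 10 germ cell markers was 2165 to 3035 at 0 h, 2921 to 3036 at 24 h and 3036 to 3164 at 48 h. Markers of undifferentiated spermatogonia summed to 2187 to 2643, 548.8 to 604.4 and 394.7 to 466.2 CPM. Those of fibroblasts and stroma summed to 760.1 to 894.8, 2755 to 3186 and 3799 to 4067 CPM, myoid markers to 13.65 to 15.71, 147.2 to 203.9 and 256.3 to 307.5 CPM, and Sertoli markers to 25.81 to 26.48, 81.53 to 136.7 and 120.8 to 130.9 CPM. Leydig markers summed to 4.531 to 6.773, 25.18 to 38.46 and 25.63 to 31.87 CPM, endothelial markers to 43.16 to 47.77, 14.43 to 18.88 and 12.3 to 12.66 CPM, and macrophage markers to 15.66 to 17.09, 5.974 to 9.798 and 5.483 to 7.405 CPM. Markers within a list did not all move alike. Cd68 made up most of the macrophage sum, with means of 15.6, 5.82 and 5.42 CPM. Csf1r, another macrophage marker, was called higher at 24 h than at 0 h, with means of 1.09 and 0.293 CPM. Among Sertoli markers, 7 were called higher at 24 h against 0 h, and Sox9 and Rhox5 lower. No marker of these lists was at 0 in every library. The sums of most somatic marker lists thus moved with time beside every change below, and their part in those changes was not tested. In bulk RNA, fewer cells of a type and less RNA per cell cannot be told apart.

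The 10 genes differed along the same GC axis at 0 h. The CPM of replicate 1 over that of replicate 3, as a log2 value, was 1.52 for Suz12 (41.6% GC) and 0.95 for Rnf2 (39.5% GC), and -0.53 for Cbx2 (57.5% GC) and -0.45 for Kdm6b (59.6% GC). Ezh1 (51.2% GC) and Scmh1 (50.0% GC) lay close to 0, at -0.13 and -0.09. Over the 10 genes, the Pearson correlation of this log2 value with GC was -0.871 and Spearman's rho was -0.912, given as a description since all points share the same 2 libraries. The coefficient of variation at 0 h ran from 3.13% for Scmh1 to 48.1% for Suz12.

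**Figure D1:**
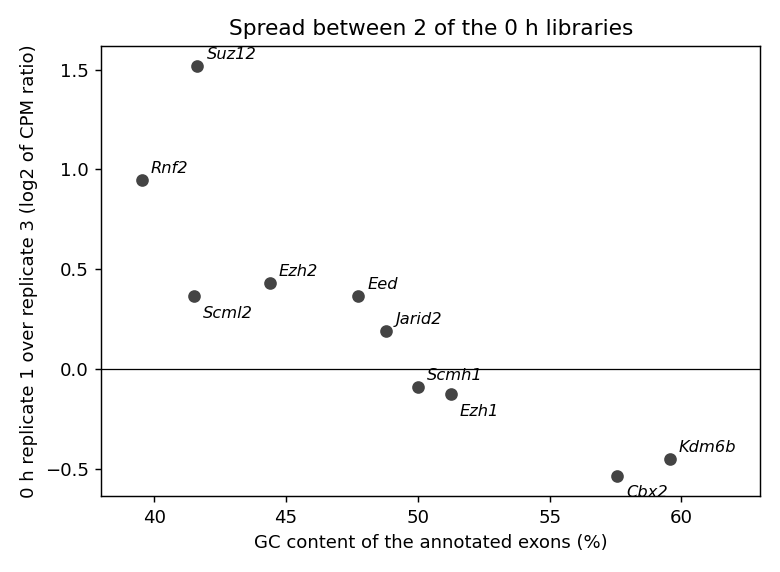
Log2 ratio of the CPM in 0 h replicate 1 to that in 0 h replicate 3 (vertical axis) against GC percentage (horizontal axis) for the 10 genes, 1 point a gene. The GC values are those of the longest transcript, although the axis names the annotated exons. Suz12 and Rnf2, low in GC, lie at 1.52 and 0.95, while Cbx2 and Kdm6b, high in GC, lie below 0.

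At 24 h against 0 h, 3 of the 10 genes fell (Ezh2, Jarid2 and Scmh1) and 1 rose (Cbx2). Over all 17592 genes tested, 25.5% were called, 11.4% as higher and 14.2% as lower. At 48 h against 0 h, 4 fell (the same 3 and Kdm6b) and Cbx2 rose, where 31.6% of 17755 genes were called, 13.0% as higher and 18.5% as lower. From 24 to 48 h, Kdm6b fell and Jarid2 rose, and 21.3% of 17499 genes were called, 8.61% as higher and 12.7% as lower. With so many genes called in these data, the counts of 4, 5 and 2 of 10 are no result about the set as a whole, and the changes are described gene by gene. Ezh1, Eed, Suz12, Rnf2 and Scml2 were called in none of the 3 comparisons. The median log2 fold change of the 10 genes was -0.197 at 24 h and -0.161 at 48 h against 0 h, and 0.002 between 24 and 48 h, where the median of all genes tested was 0.005, 0.017 and -0.005. The 4 calls at 24 h became 5 without 0 h replicate 1 or without 0 h replicate 3, and 2 without 0 h replicate 2 or without any 1 of the 24 h libraries. The 5 calls at 48 h were 5 without 0 h replicate 1, 6 without 0 h replicate 3, 3 without 0 h replicate 2 or 48 h replicate 2, and 2 without 48 h replicate 1 or 3. Such fits hold fewer libraries, and the share of all genes called in them is not given here. Their counts are therefore no result about these genes in particular.

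**Figure D2:**
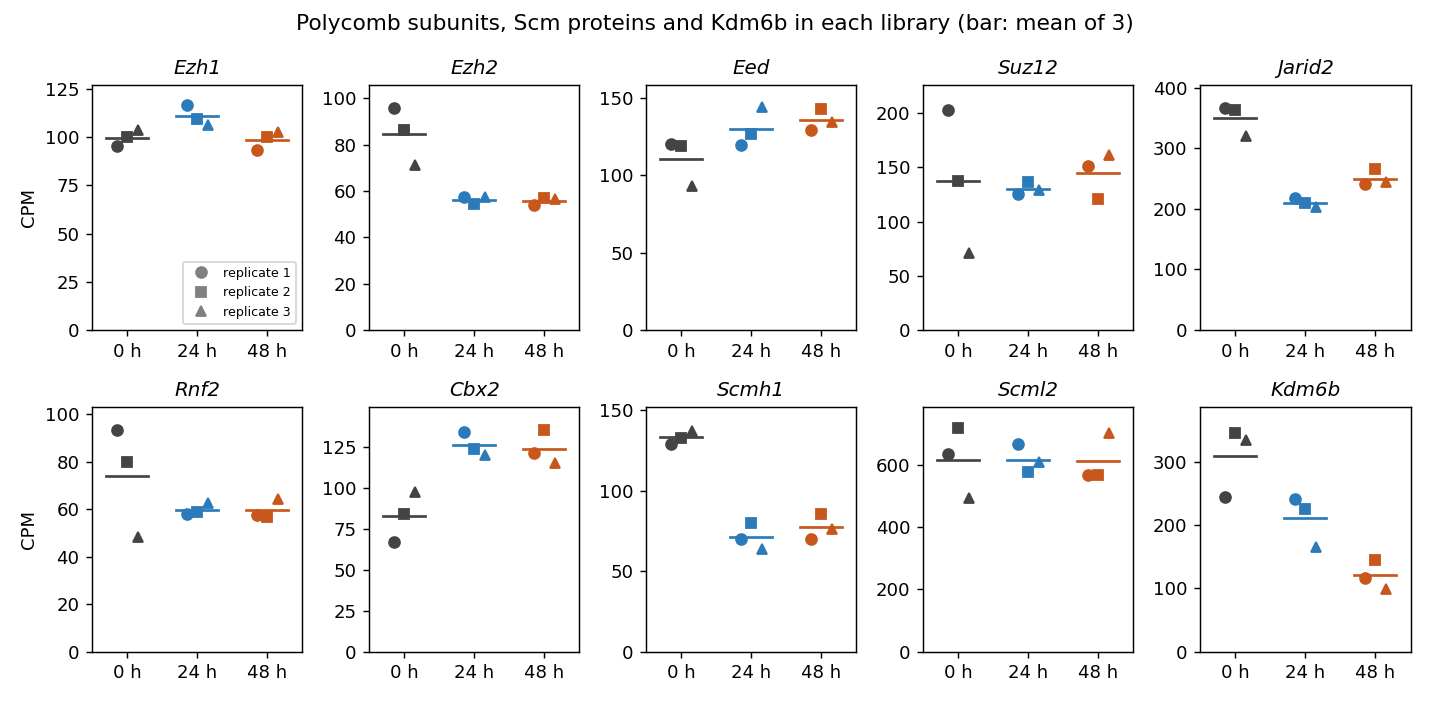
CPM (vertical axis, from 0) of each of the 10 genes in the 9 libraries at 0, 24 and 48 h, 1 point a library with its replicate number as the symbol, and a bar at the mean of 3. Jarid2, Scmh1 and Ezh2 sit lower at both later times with no overlap, Kdm6b steps down at each time, Cbx2 sits higher, and the 0 h points of Suz12 and Rnf2 are spread widely.

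**Figure D3:**
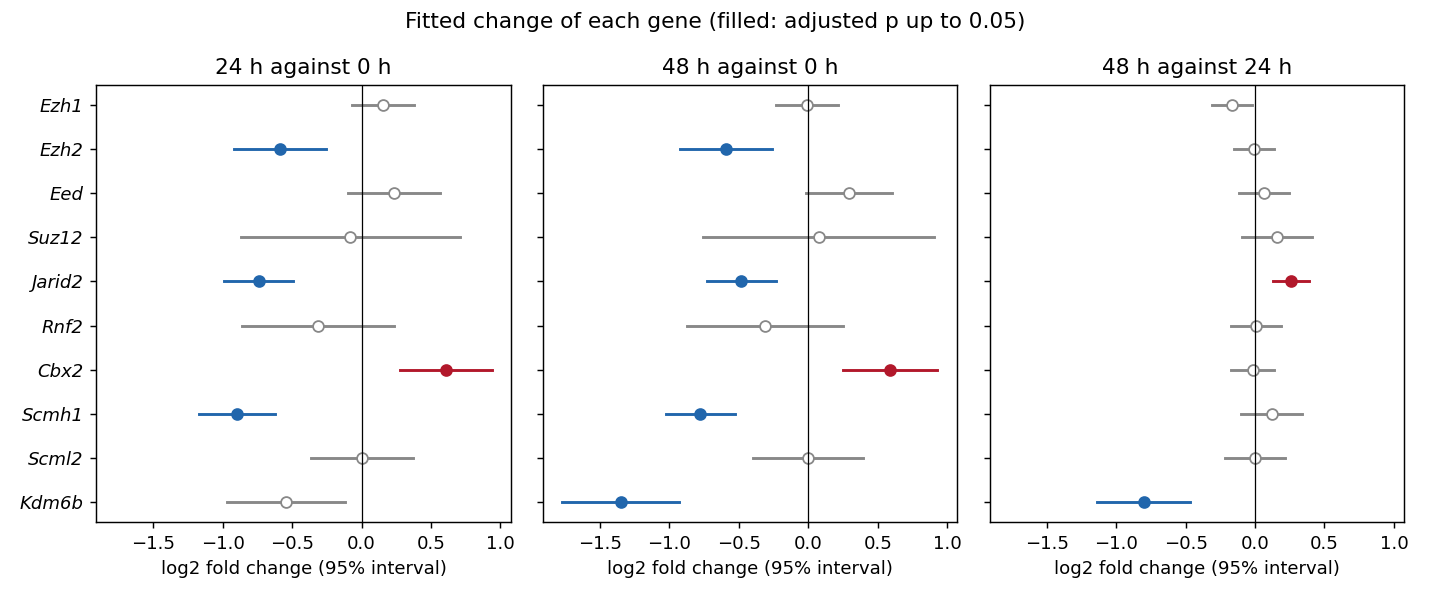
Fitted log2 fold change (horizontal axis) of each gene in the 3 comparisons, with its 95% interval as a line; filled points have an adjusted p up to 0.05, blue for lower and red for higher. The interval of Suz12 at 24 h against 0 h, from -0.87 to 0.71, is wide, while Scmh1, Jarid2 and, at 48 h, Kdm6b lie well below 0.

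The genes of the 10 called lower at both times, Ezh2, Jarid2 and Scmh1, are introduced with their promoters. Windows of 250 bases before to 50 after a RefSeq transcript start (GRCm38.p6) matched 8 of the 10 genes, and Cbx2 and Kdm6b had no entry. They were searched on both strands for 5 short motifs. These were the E2F forms TTTCCCGC and TTTGGCGC, the E-box CACGTG, the ETS motif CCGGAAGT and CNCCTCAG, a motif ascribed to STRA8. None of these overlaps another in the windows shown. Capitals mark the matched letters and each sequence runs 5′ to 3′ on the strand of its gene. The windows of Ezh2 (chr6:47594981-47595280, minus strand), Suz12 (chr11:79992856-79993155, plus strand), Jarid2 (chr13:44730524-44730823, plus strand) and Scmh1 (chr4:120405098-120405397, plus strand) read:
Ezh2: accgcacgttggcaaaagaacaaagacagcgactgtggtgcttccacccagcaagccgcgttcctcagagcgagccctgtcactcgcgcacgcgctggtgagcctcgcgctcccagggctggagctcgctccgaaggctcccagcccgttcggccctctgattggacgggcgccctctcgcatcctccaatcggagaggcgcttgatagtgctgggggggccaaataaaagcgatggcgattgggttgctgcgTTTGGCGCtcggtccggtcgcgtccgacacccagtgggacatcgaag
Suz12: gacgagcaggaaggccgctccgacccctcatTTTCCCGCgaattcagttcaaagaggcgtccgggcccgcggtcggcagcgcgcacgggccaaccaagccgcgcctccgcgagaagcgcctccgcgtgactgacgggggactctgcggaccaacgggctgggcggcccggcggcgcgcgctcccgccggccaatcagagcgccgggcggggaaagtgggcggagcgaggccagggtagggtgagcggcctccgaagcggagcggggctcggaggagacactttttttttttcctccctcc
Jarid2: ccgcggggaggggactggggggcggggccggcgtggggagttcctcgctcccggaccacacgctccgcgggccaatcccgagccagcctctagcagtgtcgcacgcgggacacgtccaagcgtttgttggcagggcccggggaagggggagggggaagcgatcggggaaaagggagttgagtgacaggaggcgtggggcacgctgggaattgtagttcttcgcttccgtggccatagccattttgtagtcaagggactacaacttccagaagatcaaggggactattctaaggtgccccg
Scmh1: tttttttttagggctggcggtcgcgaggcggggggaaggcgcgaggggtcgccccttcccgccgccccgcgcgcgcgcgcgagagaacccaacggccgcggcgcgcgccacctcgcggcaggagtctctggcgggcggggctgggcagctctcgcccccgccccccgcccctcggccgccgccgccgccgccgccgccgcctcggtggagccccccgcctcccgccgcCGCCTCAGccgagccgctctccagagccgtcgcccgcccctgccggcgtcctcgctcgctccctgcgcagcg
The Suz12 window is shown beside them because it holds a match and its gene was not called. The Ezh2 window held 1 match to TTTGGCGC, beginning 3 bases downstream of the start, a motif found in 0.514% of 32851 promoters of the same length. The Suz12 window held 1 match to TTTCCCGC, 219 bases upstream, found in 1.07% of promoters. The Scmh1 window held 1 match to CNCCTCAG, 22 bases upstream, found in 7.94% of promoters. No E-box or ETS match, present in 7.15% and 3.89% of promoters, was in the 8 windows, and the Jarid2 window held none of the 5. These shares are over all promoters, with a median GC of 52.67%, while the windows shown had 64.33% to 81.33% GC. Shares among promoters of like GC are not given here. Jarid2 and Scmh1 had 2 windows each, of which 1 was searched. A match is a run of letters and not a site of binding. The start used for Ezh2, Jarid2 and Scmh1 lay 311, 1300 and 67 bases from the outermost GENCODE gene start, so another start may be in use in these cells.

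Ezh2, the PRC2 methyltransferase typical of dividing cells, was about 1.5 times lower at both later times than at 0 h. The gene (ENSMUSG00000029687) lies on the minus strand of chr6:47530139-47595341 in GRCm38, with 21 merged exons. Its CPM was 95.8, 86.3 and 71.0 in the 0 h libraries, 57.3, 54.2 and 57.2 at 24 h and 54.0, 56.9 and 56.4 at 48 h. Every later library was below every 0 h library, and the 24 h and 48 h values overlapped. The log2 fold change was -0.59 (SE 0.14, adjusted p = 0.0205) at 24 h and -0.59 (SE 0.14, adjusted p = 0.0166) at 48 h against 0 h. Between 24 and 48 h it was -0.01 (95% interval -0.15 to 0.14). Both calls were lost in 4 of 6 fits that each left out 1 library, those without 0 h replicate 2 or without any 1 of the later libraries. Over all 6 such fits the log2 fold change at 24 h was between -0.68 and -0.47. Of a list of 15 S phase and proliferation genes, 3 were lower, 0 higher and 12 not called at 24 h, against the 14.2% of all genes called lower. At 48 h against 0 h, 7 were lower and 0 higher, against 18.5% lower over all genes, and between 24 and 48 h 6 were lower and 0 higher, against 12.7%. The median log2 fold change of the list was -0.127, -0.303 and -0.192 in these comparisons. Its summed CPM was 4370 to 4648 at 0 h, 4059 to 4209 at 24 h and 3749 to 4054 at 48 h, and its part in the Ezh2 change was not tested.

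Ezh1, the paralogue that persists in cells that divide little, was called in none of the comparisons. Its gene (ENSMUSG00000006920, chr11:101191115-101226463, minus strand) gave 95.4, 100.2 and 104.0 CPM at 0 h, 116.6, 109.7 and 106.6 at 24 h and 93.2, 100.1 and 102.6 at 48 h. The 24 h libraries were the highest, by a margin that the test did not call. On the log2 scale the change was 0.15 (95% interval -0.07 to 0.38, adjusted p = 0.301) at 24 h and -0.01 (95% interval -0.24 to 0.21, adjusted p = 0.937) at 48 h against 0 h. Between 24 and 48 h it was -0.16 (SE 0.06, adjusted p = 0.0991).

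The balance of the catalytic subunits was compared within each library. The Ezh2 to Ezh1 ratio of FPKM was 1.12, 0.959 and 0.760 at 0 h, 0.547, 0.551 and 0.598 at 24 h and 0.645, 0.633 and 0.613 at 48 h. None of the 3 groups overlapped another. As a log2 value the mean ratio changed by -0.73 at 24 h and -0.57 at 48 h against 0 h, and by 0.16 from 24 to 48 h. An exact two-sided permutation test gave p = 0.1 for each, the smallest that 3 against 3 allows, and 0.2 after Benjamini-Hochberg adjustment over 12 tests of such ratios and of shares, the shares not being reported here. Whether the ratio lies above or below 1 depends on the length used: with the longest transcript in place of all exons, Ezh2 at 0 h was 30.3 FPKM and Ezh1 23.7 FPKM, against 12.6 and 13.4 FPKM over all exons. The change of the ratio does not depend on length. At 0 h the ratio was highest in replicate 1 and lowest in replicate 3, the libraries at either end of the GC spread.

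Jarid2, the accessory subunit, fell at 24 h and then rose in part. The gene (ENSMUSG00000038518, chr13:44729474-44921643, plus strand, 22 merged exons) gave 366.8, 362.9 and 321.3 CPM at 0 h, 217.4, 209.2 and 202.8 at 24 h and 240.6, 265.3 and 244.7 at 48 h. The 3 groups did not overlap, with 24 h lowest and 48 h between. The fitted log2 fold change was -0.74 (SE 0.11, adjusted p = 0.00223) at 24 h and -0.48 (SE 0.11, adjusted p = 0.0118) at 48 h against 0 h, a level 59.9% and 71.6% of that at 0 h. From 24 to 48 h it rose by 0.26 (SE 0.06, adjusted p = 0.0127). The 24 h call held in all 6 fits without 1 library and in all 9 other settings. The 48 h call against 0 h was lost without 48 h replicate 1 (adjusted p = 0.0716) or replicate 3 (adjusted p = 0.0644). The rise from 24 to 48 h was lost when all 9 libraries shared 1 fit (adjusted p = 0.0992).

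Eed and Suz12, the shared core of PRC2, were not called at any time. Eed (ENSMUSG00000030619, chr7:89954654-89980983, minus strand) gave 120.0, 118.8 and 93.2 CPM at 0 h, 119.5, 126.9 and 144.2 at 24 h and 129.5, 142.9 and 134.2 at 48 h. All 48 h libraries were above all 0 h libraries, with a log2 fold change of 0.29 (95% interval -0.01 to 0.60, adjusted p = 0.134), and with offsets for GC and length the change was 0.36 and called (adjusted p = 0.045). Suz12 (ENSMUSG00000017548, chr11:79993106-80034123, plus strand) gave 202.7, 137.8 and 70.9 CPM at 0 h, 125.3, 136.9 and 128.7 at 24 h and 151.5, 120.4 and 161.5 at 48 h. The 0 h libraries alone spanned more than all later ones. The interval of its log2 fold change ran from -0.87 to 0.71 at 24 h and from -0.75 to 0.90 at 48 h, and changes within these intervals were not detectable here. From 24 to 48 h the value of 0.16 was not called (adjusted p = 0.346), and without 48 h replicate 2 it was 0.29 and called (adjusted p = 0.0222). Exons of an antisense or opposite-strand gene cover 6.82% of the Eed exons (E230029C05Rik), 3.6% of Suz12 (Gm26563) and 2.61% of Ezh2 (Gm26625). How reads there were counted is not known, since the strand setting is not given.

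Of the 6 core genes, Ezh2 alone was called, at 24 and 48 h against 0 h, and Rbbp4 and Rbbp7, the histone-binding subunits, were not called. Of 9 accessory genes, 3 were lower and 0 higher at 24 h and again at 48 h against 0 h, and 2 were higher and 3 lower from 24 to 48 h. Over all genes tested, 14.2%, 18.5% and 12.7% were called lower in these comparisons, and 11.4%, 13.0% and 8.61% higher. Phf19, a Polycomb-like subunit that binds methylated H3K36, had the steepest fall of all 69 Polycomb genes listed. Its CPM was 19.4, 24.3 and 28.6 at 0 h, 3.02, 2.13 and 2.58 at 24 h and 1.54, 1.5 and 0.901 at 48 h, with no overlap between any groups. Fitted on the log2 scale, the change was -3.22 (SE 0.21, adjusted p = 6.35e-05) at 24 h and -4.18 (SE 0.26, adjusted p = 4.29e-05) at 48 h against 0 h. Epop, which links PRC2 to elongin, gave 37.4, 64.4 and 90.7 CPM at 0 h, 48.1, 45.3 and 42.1 at 24 h and 24.2, 21.8 and 21.2 at 48 h. It fell by 1.51 on the log2 scale at 48 h against 0 h (SE 0.29, adjusted p = 0.00684) and by 1.00 from 24 to 48 h (SE 0.09, adjusted p = 0.000187). The second of these calls was lost in 1 fit of all 9 libraries (adjusted p = 0.0515). At 24 h the Epop value of -0.50 was not called (adjusted p = 0.241) except without 0 h replicate 1 (-0.77, adjusted p = 0.00978) and with GC and length offsets (-0.70, adjusted p = 0.00216).

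Within PRC1, the ring finger ligases gave no call. Rnf2 (ENSMUSG00000026484, chr1:151458004-151500955, minus strand) gave 93.25, 80.04 and 48.33 CPM at 0 h, 57.8, 58.6 and 62.5 at 24 h and 57.5, 56.8 and 64.4 at 48 h. Exons of Trmt1l, a protein-coding gene on the opposite strand, cover 3.83% of the Rnf2 exons, and how reads there were counted is not known. Replicates 1 and 2 of Rnf2 at 0 h were above every later library and replicate 3 below every one. The log2 fold change was -0.31 (95% interval -0.86 to 0.24, adjusted p = 0.391) at 24 h and -0.31 (95% interval -0.87 to 0.25, adjusted p = 0.375) at 48 h. Without 0 h replicate 3 it was -0.52 at both times and called (adjusted p = 0.0116 and 0.014), and with offsets for GC and length it was called at 48 h, at -0.53 (adjusted p = 0.00673). Ring1, its paralogue, gave 10.26, 13.69 and 14.25 CPM at 0 h, 17.64, 17.65 and 16.96 at 24 h and 17.01, 22.37 and 16.11 at 48 h. All later libraries of Ring1 were above all 0 h libraries, with log2 fold changes of 0.45 (adjusted p = 0.0653) and 0.54 (adjusted p = 0.0594) that missed the threshold. With GC and length offsets they were 0.55 (adjusted p = 0.00463) and 0.83 (adjusted p = 0.001). Rnf2 was the more abundant per length in every library, by 7.14, 4.59 and 2.67 times at 0 h, 2.57, 2.61 and 2.90 times at 24 h and 2.66, 2.00 and 3.14 times at 48 h. This ratio overlapped between groups (exact permutation p = 0.2 against 0 h at both times, 0.267 after adjustment).

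Cbx2, the chromodomain subunit whose loss causes sex reversal in male mice, was the 1 gene of the 10 that rose against 0 h. The gene (ENSMUSG00000025577, chr11:119022962-119031270, plus strand, 5 merged exons) gave 67.1, 83.8 and 97.1 CPM at 0 h, 133.7, 123.7 and 119.9 at 24 h and 121.4, 134.9 and 115.2 at 48 h. Every later library was above every 0 h library, and the later groups overlapped. On the log2 scale the change was 0.61 (SE 0.14, adjusted p = 0.0176) at 24 h and 0.59 (SE 0.14, adjusted p = 0.019) at 48 h against 0 h, 1.53 and 1.51 times the 0 h level. Both calls were lost without 0 h replicate 2 and without any 1 library of the later group, and the log2 fold change at 24 h was 0.49 to 0.76 over all 6 such fits. Between 24 and 48 h the change was -0.02 (95% interval -0.17 to 0.14), and 0.19 with GC and length offsets (adjusted p = 0.0282), the opposite sign.

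Among other CBX genes of canonical PRC1, Cbx7 fell at 48 h. Cbx7, linked to self-renewal in stem cells, gave 47.2, 68.3 and 66.9 CPM at 0 h, 47.5, 41.8 and 39.1 at 24 h and 40.8, 46.6 and 36.3 at 48 h. The 48 h log2 fold change was -0.55 (SE 0.17, adjusted p = 0.0411), and its 24 h value of -0.50 was not called (adjusted p = 0.0582). The 48 h call was lost without 0 h replicate 2 or 3 or any 1 of the 48 h libraries. It held in 6 of 9 other settings. It was lost with library size alone (adjusted p = 0.0877), a replicate block (adjusted p = 0.0744) and a test of folds over 1.3 (adjusted p = 0.211). Cbx8 was called from 24 to 48 h, at 0.38 (SE 0.12, adjusted p = 0.0447), a call lost without any 1 of the 24 h libraries or 48 h replicates 1 or 2. It held in 5 of 9 other settings. It was lost with library size alone (adjusted p = 0.0595), a replicate block (adjusted p = 0.0819), folds over 1.3 (adjusted p = 0.933) and 1 fit of all 9 libraries (adjusted p = 0.346). At 48 h against 0 h Cbx8 was not called (0.43, adjusted p = 0.235) except with GC and length offsets (0.68, adjusted p = 0.0129). Cbx6 was called in no comparison, with a log2 fold change of 0.05 at 24 h and 0.08 at 48 h.

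**Figure D4:**
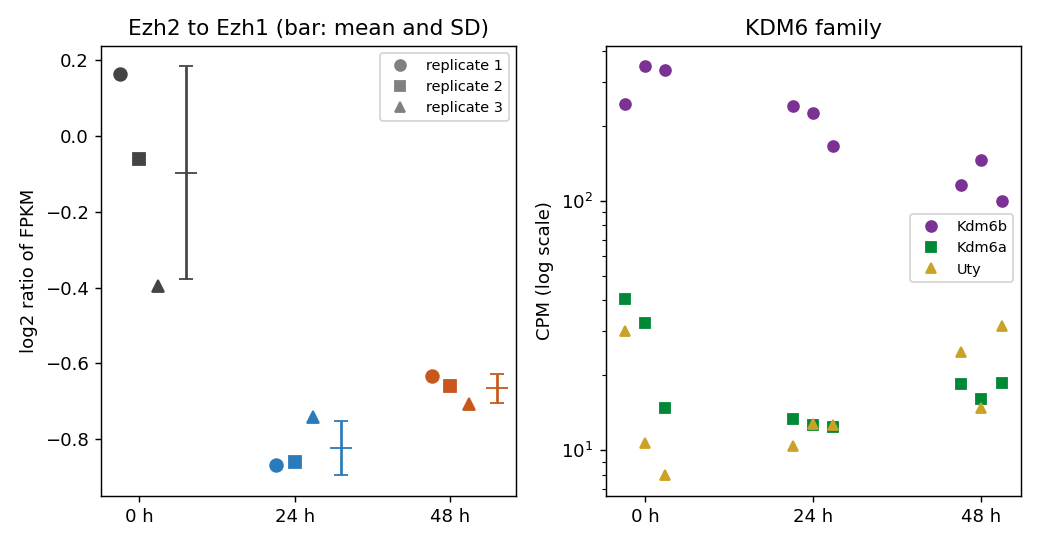
Left, log2 ratio of Ezh2 to Ezh1 FPKM in each library, with the mean and SD of 3; right, CPM on a log axis of Kdm6b, Kdm6a and Uty in each library. The Ezh2 to Ezh1 ratio is lower in all 6 later libraries, and Kdm6b lies above Kdm6a and Uty throughout.

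Of the Scm genes in the set, Scmh1 fell at both later times and Scml2 was not called. Scmh1 (ENSMUSG00000000085, chr4:120405281-120530186, plus strand, 19 merged exons) gave 128.8, 132.8 and 137.1 CPM at 0 h, 69.9, 80.1 and 63.9 at 24 h and 70.2, 85.4 and 76.0 at 48 h. The 0 h libraries lay close together and far above every later one. The fitted log2 fold change was -0.90 (SE 0.12, adjusted p = 0.00148) at 24 h and -0.78 (SE 0.11, adjusted p = 0.00149) at 48 h, a level 53.7% and 58.3% of that at 0 h. Both calls held in all 6 fits without 1 library and in all 9 other settings. No change between 24 and 48 h was called (0.12, 95% interval -0.10 to 0.34).

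Scml2 was the most abundant of the 10 per length, and no change in it was detectable. The gene (ENSMUSG00000000037, chrX:161117193-161258213, plus strand, 32 merged exons) gave 632.4, 716.2 and 491.2 CPM at 0 h, 666.3, 574.8 and 606.8 at 24 h and 567.3, 567.2 and 700.1 at 48 h. The groups overlapped throughout, and the 0 h libraries held both the highest and the lowest value. Fitted on the log2 scale, the change was 0.01 (95% interval -0.36 to 0.37) at 24 h and -0.00 (95% interval -0.40 to 0.40) at 48 h against 0 h. Its FPKM (mean ± SD of 3 libraries) started at 100.9 ± 18.7, and was 101.3 ± 7.64 after 24 h and 100.6 ± 12.6 after 48 h. Scml4, another Scm-like gene, is low in these cells and fell: 8.30, 10.0 and 9.36 CPM at 0 h, 1.96, 1.33 and 1.95 at 24 h and 1.18, 1.63 and 1.65 at 48 h. The fitted changes were -2.39 (SE 0.22, adjusted p = 0.000289) and -2.62 (SE 0.21, adjusted p = 0.000135) as log2 values against 0 h. Sfmbt2, a Scm-related gene with MBT domains, fell by 0.81 (SE 0.20, adjusted p = 0.0219) and 1.10 (SE 0.20, adjusted p = 0.00529) on the same scale, from a mean of 311.5 CPM to 178.3 and 145.2. Its 24 h call was lost without 0 h replicate 2 or any 1 of the 24 h libraries, and in a test of folds over 1.3 (adjusted p = 0.0776).

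Kdm6b, an H3K27 demethylase (JMJD3), was the gene of the 10 with the largest fall at 48 h. The gene (ENSMUSG00000018476, chr11:69398508-69413675, minus strand, 23 merged exons) gave 245.0, 346.2 and 334.7 CPM at 0 h, 241.0, 225.2 and 166.2 at 24 h and 116.1, 145.4 and 99.7 at 48 h. The groups formed a descending series with no overlap, although 0 h replicate 1 and 24 h replicate 1 were close. At 24 h the log2 fold change of -0.55 (SE 0.18, adjusted p = 0.0647) missed the threshold, and it passed in 4 of 9 other settings, among them GC and length offsets (-0.57, adjusted p = 0.00579), and without 0 h replicate 1 (-0.68, adjusted p = 0.018). At 48 h against 0 h it was -1.35 (SE 0.18, adjusted p = 0.00139), 2.55 times lower, a call that held in all 6 fits without 1 library and all 9 other settings. From 24 to 48 h it was -0.80 (SE 0.15, adjusted p = 0.00616). The antisense gene Kdm6bos covers 4.11% of its exons.

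The other KDM6 genes were lower in level and more spread at 0 h. Kdm6a (UTX), X-linked, gave 40.5, 32.4 and 14.8 CPM at 0 h, 13.4, 12.6 and 12.4 at 24 h and 18.4, 16.1 and 18.7 at 48 h. It fell at 24 h against 0 h by 1.20 on the log2 scale (SE 0.34, adjusted p = 0.0381), a call lost without 0 h replicate 1 or 2 or any 1 of the 24 h libraries, and rose from 24 to 48 h by 0.48 (SE 0.10, adjusted p = 0.0123). The fall held in 6 of 9 other settings. It was lost with library size alone (adjusted p = 0.0522), a replicate block (adjusted p = 0.0639) and folds over 1.3 (adjusted p = 0.0836). The rise was lost with GC and length offsets (0.27, adjusted p = 0.0741), in 1 fit of all 9 libraries (adjusted p = 0.398) and in a test of folds over 1.3 (adjusted p = 0.482). At 48 h against 0 h its -0.72 was not called (adjusted p = 0.152), and without 0 h replicate 3 it was -1.02 (adjusted p = 0.0019). Uty, the Y-linked paralogue, gave 30.1, 10.7 and 7.95 CPM at 0 h, 10.4, 12.8 and 12.6 at 24 h and 24.9, 14.8 and 31.4 at 48 h, and rose from 24 to 48 h by 1.00 (SE 0.24, adjusted p = 0.0198), a call lost without 24 h replicate 1 or 48 h replicate 1 or 3. The Uty rise held in 7 of 9 other settings. It was lost in 1 fit of all 9 libraries (adjusted p = 0.25) and in a test of folds over 1.3 (adjusted p = 0.135). Against 0 h, Uty was not called (adjusted p = 0.553 and 0.481), and leaving out 0 h replicate 1 gave 1.36 on the log2 scale for 48 h (adjusted p = 0.0154). Per length, Kdm6b exceeded Kdm6a by 7.29, 12.9 and 27.2 times at 0 h, 21.6, 21.6 and 16.1 times at 24 h and 7.61, 10.9 and 6.44 times at 48 h. The log2 ratio was lower at 48 h than at 24 h by 1.27 with no overlap (exact permutation p = 0.1, 0.2 after adjustment), and the 0 h libraries spanned both.

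In order of FPKM at 0 h, Scml2 (100.9 ± 18.7) was followed by Kdm6b (44.4 ± 7.97), Jarid2 (36.1 ± 2.60), Eed (28.9 ± 3.95), Suz12 (27.7 ± 13.3), Cbx2 (19.4 ± 3.53), Rnf2 (17.9 ± 5.59), Scmh1 (17.2 ± 0.537), Ezh1 (13.4 ± 0.580) and Ezh2 (12.6 ± 1.88; SD, n = 3). Eed and Suz12, Cbx2, Rnf2 and Scmh1, and Ezh1 and Ezh2 were neighbours closer than their spread. At 48 h the order after Scml2 was Eed (35.4 ± 1.78), Suz12 (29.2 ± 4.33), Cbx2 (29.1 ± 2.37), Jarid2 (25.7 ± 1.36), Kdm6b (17.3 ± 3.33), Rnf2 (14.4 ± 1.01), Ezh1 (13.3 ± 0.655), Scmh1 (9.99 ± 0.994) and Ezh2 (8.35 ± 0.238). Kdm6b thus ranked next to Scml2 at 0 h and below Jarid2 at 48 h. With the longest transcript as length Scml2 was still first at 0 h (126.5 FPKM), and Eed (53.5) came before Kdm6b (46.4), so places between genes rest on the length chosen.

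The 69 genes of the 7 Polycomb lists, the 10 among them, gave 5 higher and 15 lower at 24 h, 6 and 18 at 48 h against 0 h, and 11 and 9 from 24 to 48 h. Without the 10, the counts over 59 genes were 4 and 12, 5 and 14, and 10 and 8, against backgrounds that called 25.5%, 31.6% and 21.3% of all genes. Of the 69, the 20 called at 24 h became 7 without 0 h replicate 2 or any 1 of the 24 h libraries, and 25 without 0 h replicate 1 or 3. The 24 called at 48 h became 12 to 14 without 0 h replicate 2 or any 1 of the 48 h libraries, and 34 and 27 without 0 h replicates 1 and 3. The 20 called from 24 to 48 h became 10 without 24 h replicate 1 or 48 h replicate 1, and 11 without 48 h replicate 3. The share of all genes called in these smaller fits is not given here, so the drops are no result about Polycomb genes in particular. The median log2 fold change of the 59 was -0.07, -0.03 and 0.04. Of 8 RING and PCGF genes, 1 rose and 1 fell at 24 h and 2 rose and 1 fell at 48 h. Bmi1 (PCGF4), a defining subunit of canonical PRC1 with a role in stem cell self-renewal, gave 66.9, 49.6 and 28.3 CPM at 0 h, 49.3, 55.5 and 59.8 at 24 h and 95.2, 94.2 and 106.6 at 48 h. It rose by 1.03 at 48 h against 0 h (SE 0.29, adjusted p = 0.0333) and by 0.85 from 24 to 48 h (SE 0.09, adjusted p = 0.000566), after a 24 h value of 0.18 that was not called. The first of these calls was lost without 0 h replicate 2 or any 1 of the 48 h libraries, and in a test of folds over 1.3 (adjusted p = 0.0801). The call from 24 to 48 h was lost in 1 fit of all 9 libraries (adjusted p = 0.083). Pcgf2, the paralogue of Bmi1, was called in no comparison, with log2 fold changes of -0.35 and -0.25 against 0 h.

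Of 13 canonical PRC1 genes, 2 rose and 4 fell at 24 h, 2 rose and 5 fell at 48 h, and 1 rose and 1 fell between 24 and 48 h. Of 20 variant PRC1 accessory genes, 1 rose and 3 fell at 24 h, 1 rose and 5 fell at 48 h, and 2 rose and 4 fell between 24 and 48 h. The share called was 46.15%, 53.85% and 15.38% of the canonical list and 20.0%, 30.0% and 30.0% of the variant list. Over all genes tested it was 25.5%, 31.6% and 21.3%, so the counts of these lists are given as a description. Bcor, the scaffold of the PRC1.1 complex, gave 62.1, 58.9 and 61.8 CPM at 0 h, 28.9, 27.1 and 23.9 at 24 h and 30.5, 32.1 and 28.7 at 48 h. It fell by 1.19 on the log2 scale at 24 h (SE 0.12, adjusted p = 0.000439) and by 1.00 at 48 h (SE 0.10, adjusted p = 0.000463), with no overlap with 0 h. The PR-DUB complex and other H2A deubiquitinases remove the mark that PRC1 writes. Among 10 genes of this list, not all of them enzymes, 1 rose and 2 fell at 24 h and at 48 h against 0 h, and 2 rose between 24 and 48 h. These were shares of 30.0%, 30.0% and 20.0%, near those over all genes tested. The gene that rose against 0 h was Bap1, by 0.49 at 24 h (SE 0.12, adjusted p = 0.0223) and 0.41 at 48 h (SE 0.12, adjusted p = 0.0412) on the log2 scale. How these Bap1 calls held in other fits is not given here. In the same list, mean CPM at 0, 24 and 48 h was 91.39, 54.36 and 49.36 for Foxk1 and 115.5, 89.25 and 89.95 for Foxk2. For both, every later library was below every 0 h library. The 3 H3K27 demethylases are given above.

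**Figure D5:**
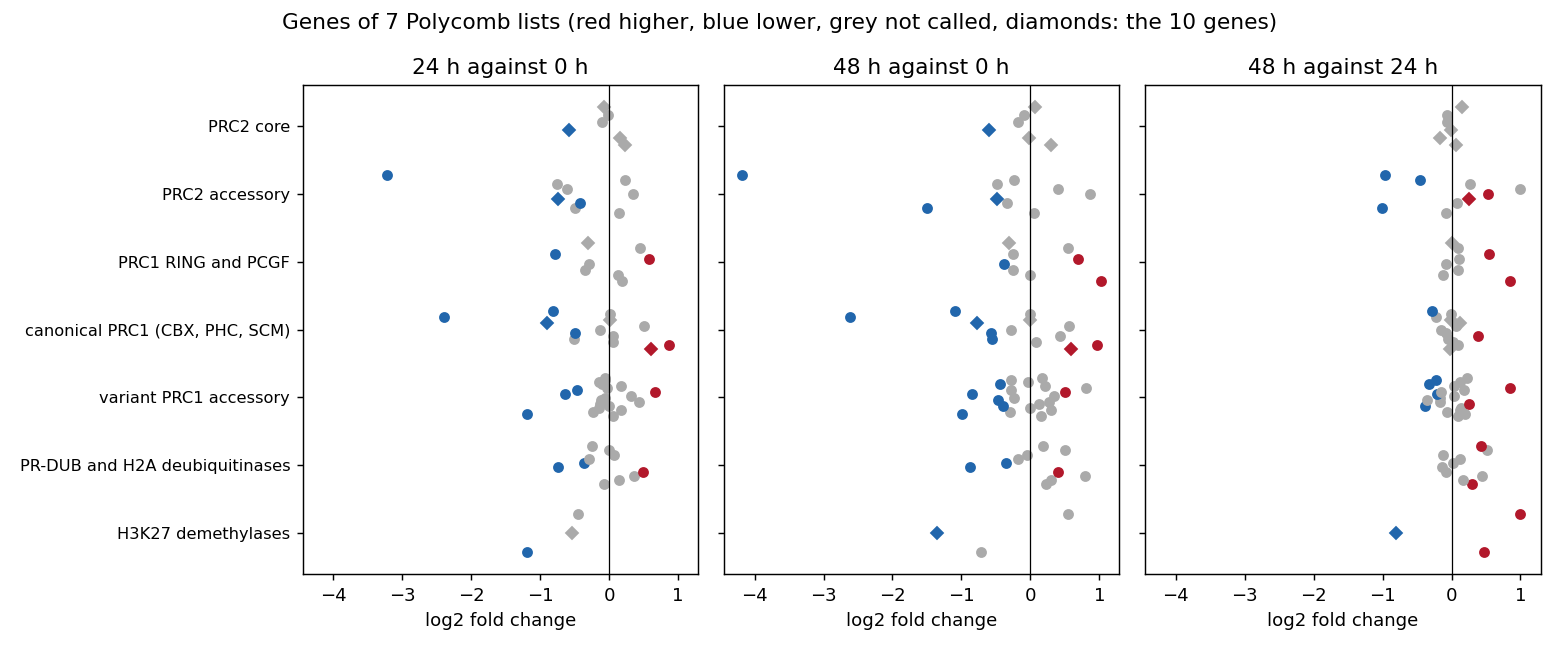
Log2 fold change (horizontal axis) of the 69 Polycomb genes in 7 lists (vertical axis) for the 3 comparisons, 1 point a gene; blue is lower and red higher at an adjusted p up to 0.05, and diamonds are the 10 genes. Most points lie within 1 of 0, and the far left point of the PRC2 accessory list is Phf19, at -3.22 and -4.18 against 0 h.

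Hox genes, classical targets of Polycomb silencing, were low at 0 h and higher in sum at the later times. The summed CPM of 39 Hox genes was 23.3 to 30.6 at 0 h, 32.5 to 35.5 at 24 h and 47.1 to 49.5 at 48 h. Of the 39, 14 passed the low-count filter at 24 h against 0 h, with 6 higher and 2 lower, and 23 at 48 h, with 15 higher and 1 lower. From 24 to 48 h, 5 of 23 were higher and 0 lower. Over all genes tested, 11.4%, 13.0% and 8.61% were called higher in these comparisons, and 14.2%, 18.5% and 12.7% lower. Hoxc13, the Hox gene with the highest mean at 0 h, was called lower at both later times. Its mean went from 8.86 CPM to 1.59 at 24 h and 1.72 at 48 h, against the direction of the sum. A Hox gene near 0 at 0 h could pass that filter through the later group alone, so these counts are given as a description. Somatic cells express Hox genes too, and the sums of fibroblast, myoid and Sertoli markers were higher in the same libraries, and their part in the Hox sum was not tested.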

How the data were processed

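Poly(A) RNA of cultured EGFP-marked spermatogonial cells was measured by RNA-seq in 9 libraries, 3 each at 0, 24 and 48 h, grouped by their labels. The authors deposited 1 table of raw read counts per gene for each library, without normalization; their notes name fastp, HISAT2, featureCounts and the build GRCm38, with versions and the strand setting not given in the sources used here. Totals ran from 16825251 to 22201892 counts.

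Of 46078 IDs, 45229 matched GENCODE M21, which gave symbols, exon lengths and the GC of the longest transcript. The counts were tested with edgeR 4.0.16 in R 4.3.3 (quasi-likelihood fit, TMM scaling, filterByExpr, Benjamini-Hochberg over all genes tested, threshold 0.05), on the 6 libraries of each comparison. Standard errors and 95% intervals came from the same fit. The fit was also run on simulated counts. These lacked the GC spread seen at 0 h, so they say nothing about its effect on the calls. FPKM was the TMM-scaled CPM per kilobase of merged exons. Ratios were compared with an exact two-sided permutation test in SciPy 1.17.1. Sequence windows of 75 bases were compared with other genes with BLAST 2.17.0 at 97% identity, and matched in 9.77% of Eed, 2.79% of Suz12, 1.14% of Kdm6b and 0.553% of Ezh2 windows, and in none of the other 6 genes. Promoters were RefSeq windows of GRCm38.p6.

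The 10 genes and the lists (7 Polycomb lists, Hox, S phase and proliferation, and 8 marker lists) were chosen with earlier results of these data known. Beside the 10, the text names fixed paralogues (Ring1, Cbx6, Cbx7, Cbx8, Bmi1, Pcgf2, Kdm6a and Uty) and each gene of the Polycomb lists called with an absolute log2 fold change of at least 1 against 0 h. A result of this rule is not reported here. Rbbp4, Rbbp7, Bap1, Foxk1, Foxk2, Hoxc13 and the single cell type markers were named after their values were seen. Alternatives were DESeq2 1.42.0, its size factors in edgeR, library size alone, no filter, at least 10 counts in each library, a replicate block, a test of folds over 1.3, offsets for GC and length (splines of 5 and 4 degrees of freedom), 1 fit of all 9 libraries, and leaving out each library in turn.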

Additional observations from a re-analysis of the deposited data

How the results depend on the processing

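Among the 10 genes, the calls that held in every fit run were Scmh1 at 24 and 48 h, Jarid2 at 24 h and Kdm6b at 48 h against 0 h. The number of the 10 genes called was 4, 5 and 2 in the order 24 h and 48 h against 0 h and 48 h against 24 h. A test of folds over 1.3 left 2, 2 and 0, and 1 fit of all 9 libraries left 1 from 24 to 48 h. Leaving out 1 library gave 2 to 5 at 24 h and 2 to 6 at 48 h. Fits without 1 library hold fewer samples, and the cause of the other differences was not tested.

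The replicate numbers did not pair the libraries: same-numbered libraries of different groups had deviations correlated between -0.28 and 0.196, and not every library correlated best with its own number. With the replicate block, 2 of the 10 genes were called at 24 h, where Ezh2 (adjusted p = 0.0572) and Cbx2 (adjusted p = 0.0575) were lost, and at 48 h against 0 h Ezh2 was lost (adjusted p = 0.0515). Under that block the log2 fold change was 0.05 for Suz12 at 24 h and 0.0094 for Scml2 at 48 h.

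Sign changes arose in values that were not called to begin with. With GC and length offsets, values were -0.0669 for Scml2 at 24 h, 0.0912 for Ezh1 and -0.098 for Suz12 at 48 h, and from 24 to 48 h -0.0485 for Suz12, -0.2284 for Rnf2, 0.1859 for Cbx2 and 0.0963 for Cbx7. By library size alone they were 0.0319 for Suz12 at 24 h, 0.097 for Ezh1 and 0.107 for Scml2 at 48 h, and -0.0001 for Rnf2 from 24 to 48 h. With at least 10 counts in each library they were 0.0053 for Ezh1 and 0.0178 for Scml2 at 48 h, and from 24 to 48 h 0.0184 for Ezh2, 0.0083 for Cbx2 and 0.0219 for Scml2. With 1 fit of all libraries they were -0.0088 at 24 h and 0.0004 at 48 h for Scml2, and from 24 to 48 h 0.0052 for Ezh2 and 0.0092 for Scml2. DESeq2 gave 0.007 for Scml2 at 48 h and, from 24 to 48 h, 0.0076 for Ezh2 and 0.0108 for Scml2. Its size factors in edgeR gave 0.0104 for Scml2 at 48 h and, from 24 to 48 h, 0.0098 for Ezh2, 0.0002 for Cbx2 and 0.0134 for Scml2.

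Without 1 library, values at 24 h against 0 h ran from -0.3706 to 0.3309 for Suz12, -0.1125 to 0.1265 for Scml2, -0.0922 to 0.1438 for Cbx6, -0.1833 to 0.2328 for Cbx8, -0.0696 to 0.5043 for Bmi1 and -0.7543 to 0.3696 for Uty. At 48 h against 0 h they ran from -0.0398 to 0.0359 for Ezh1, -0.2163 to 0.4826 for Suz12, -0.1169 to 0.1244 for Scml2 and -0.0729 to 0.178 for Cbx6. From 24 to 48 h they ran from -0.0261 to 0.0285 for Ezh2, -0.0076 to 0.1657 for Eed, -0.0588 to 0.0634 for Rnf2, -0.0643 to 0.0285 for Cbx2, -0.1162 to 0.0641 for Scml2, -0.0496 to 0.1771 for Ring1, -0.0174 to 0.1184 for Cbx6 and -0.1274 to 0.031 for Cbx7.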
